A study of Mus musculus with 6 samples.

Results

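The miR-99/miR-100 and miR-125 families were followed in bone marrow-derived macrophages by 7 TaqMan RT-PCR assays, chosen by name from the 596 miRNA assays of the Ct table: miR-99a, miR-100 and miR-99b, and miR-125b-5p, miR-125a-5p, miR-125a-3p and miR-125b-3p. The macrophages came from 3 mice of the genotype LysM-Cre/Dicerflox/flox/Apoe-/- (Dicer KO) and 3 mice of the genotype LysM-Cre/Dicerwt/wt/Apoe-/- (Dicer WT). All mice were male and 6 to 8 weeks old, and both groups lacked Apoe and carried the Cre driver, so that the groups differed in the floxed Dicer alleles. Marrow was taken from the femora and cultured for 7 days with L929-conditioned medium, a source of macrophage colony-stimulating factor. LysM-Cre is active in the myeloid lineage, so cells of another lineage in the culture keep Dicer. The panel holds no assay of the Dicer transcript, and the genotype was taken from the labels.

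Dicer cuts a miRNA hairpin into a short duplex, of which 1 strand (the guide) is loaded into an Argonaute protein and the other (the passenger) is mostly discarded. The guide pairs with messenger RNAs mainly through its seed, bases 2 to 8. The miR-125 family descends from the same ancestor as lin-4 of the worm, and in mice excess miR-125b drives the expansion of blood cells and leukaemia. In macrophages miR-125b has been linked to the Tnf and Irf4 transcripts, and the miR-99/miR-100 family represses components of the mTOR pathway. The hairpins of both families lie beside let-7 hairpins in 3 clusters of the genome.

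The mature sequences of the members, from RefSeq for GRCm38.p6, are shown with the seed in capitals because the 5′ arms fall into 2 seed groups, and because closely related sequences bear on how far the assays can be told apart.
miR-99a: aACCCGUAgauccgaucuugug
miR-100: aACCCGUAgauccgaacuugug
miR-99b: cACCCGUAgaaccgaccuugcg
miR-125b-5p: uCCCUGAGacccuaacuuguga
miR-125a-5p: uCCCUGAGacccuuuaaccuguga
miR-125a-3p: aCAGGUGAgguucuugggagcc
Counted from 1 at the 5′ end, miR-99a and miR-100 differ by 1 base of 22, U16A. Set against miR-99a, miR-99b carries 4 changes, A1C, U11A, U16C and U21C. The 3 members of the miR-99/miR-100 family thus share the seed ACCCGUA. miR-125a-5p, with 24 bases, and miR-125b-5p, with 22, share their first 13 and last 5 bases and the seed CCCUGAG. Whether an assay also detects the nearest relative was not tested here.

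miR-99a lies at chr16:77598940-77598961, in a cluster with let-7c-1 and the hairpin miR-125b-2. miR-100 lies at chr9:41531437-41531458, in a cluster with let-7a-2 and the hairpin miR-125b-1, and the annotated lncRNA gene Mir100hg spans all 3 hairpins. miR-99b lies at chr17:17830194-17830215, let-7e at chr17:17830366-17830387 and miR-125a-5p at chr17:17830817-17830840, within the span of the protein-coding gene Spaca6. All 3 clusters are on the plus strand. Exon or intron was not resolved with the annotation used here. miR-125b-5p is made with the same sequence from chr9:41581940-41581961 and from chr16:77646279-77646300, so its assay sums both hairpins.

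The threshold cycle (Ct) falls by 1 for each doubling of template, and a well without amplification is listed at Ct 40. Levels are given as log2 relative abundance, the negative of the Ct after subtraction of the average over 5 endogenous control RNAs read in that sample. A Ct of 35 was used as the detection ceiling. Levels were not ranked between assays, since the efficiency of each is not known. Sums over assays and pairs of assays were compared only between samples. The rows of the table form 2 sets with controls of their own, here called pool A and pool B, and all 7 members are in pool A. Its mean control Ct was 22.8, 20.3 and 19.3 in KO replicates 1 to 3 and 21.1, 20.6 and 19.1 in WT replicates 1 to 3. KO replicate 1 had the latest controls and 219 detected miRNA assays, against 277 and 290 in the other KO samples and 307 to 309 in WT samples. Of 6 macrophage and myeloid marker assays all were tested and 3 fell in KO, miR-223 (-1.91), miR-142-3p (-1.89) and miR-21 (-2.21), with limma adjusted p = 0.0445, 0.0321 and 0.0312. The others, miR-142-5p (-1.44), miR-146a (-1.98) and miR-155 (-1.93), were lower without passing. These differences lay near the median of all tested assays, -1.91, of which 37.2% fell. The summed relative abundance of the 6 markers was 7.96 to 14.4 in KO samples and 28.3 to 52.6 in WT samples, and the part of this in the results was not tested. miR-223, with the lowest Ct of the 6 in every sample, weighs most in this sum. With bulk RNA, fewer cells of a type and less RNA per cell cannot be told apart.

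Of the 7 members, 6 were below the ceiling in all 6 samples and were tested. miR-125b-3p was not. The 3 members of the miR-99/miR-100 family fell in KO macrophages, while the 3 tested members of the miR-125 family were lower by 2.33-fold to 7.58-fold without passing the test. Thus 3 of 6 tested members were lower at an adjusted p under 0.05 (limma, Benjamini-Hochberg over 282 tested assays), where 37.2% of all tested assays were lower. With the replicate number as a block, 3 members were again lower, against 41.8% of all tested assays. In that fit miR-125a-3p, miR-125a-5p and miR-125b-5p had limma adjusted p = 0.0571, 0.0634 and 0.0832. The families were not tested against each other as lists. None of the members was higher by limma, also at an unadjusted p under 0.05 (0 of 6), against 0.355% of all tested assays at the adjusted threshold. The median difference of the 6 members was -1.95 on the log2 scale, beside -1.91 for all tested assays. In 4 of the 6 no KO sample reached the lowest WT sample, as was the case in 59.9% of all tested assays. The members' share and median are thus near those of the whole panel. All 6 were lower in KO in each of the 3 same-numbered pairs of replicates, a count that was not taken over the whole panel. By mean difference, 247 of the 282 tested assays were lower in KO.

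**Figure D1:**
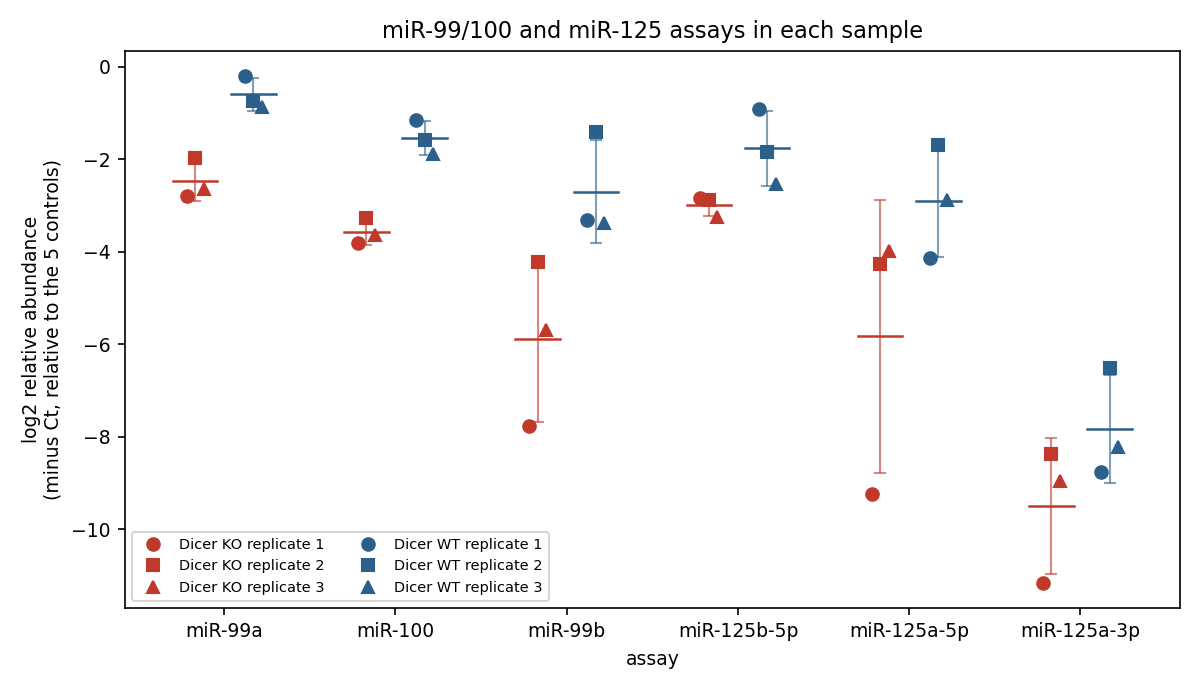
Log2 relative abundance (y axis) of the 6 tested assays (x axis) in 3 Dicer KO samples (red, left) and 3 Dicer WT samples (blue, right); symbols mark the replicate, horizontal lines the mean and error bars the SD. KO and WT samples are separate for miR-99a, miR-100, miR-99b and miR-125b-5p and overlap for miR-125a-5p and miR-125a-3p, where KO replicate 1 lies lowest, at -9.23 and -11.1.

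The first family member, miR-99a, had Ct values of 25.6, 22.2 and 22.0 in KO samples and 21.3, 21.3 and 20.0 in WT samples. Relative to the controls its level was -2.79, -1.96 and -2.63 in KO and -0.20, -0.73 and -0.86 in WT. The groups did not overlap, and the highest KO sample, replicate 2, lay 1.10 below the lowest WT sample. miR-99a fell 3.65-fold (log2 -1.87 ± 0.52, SE, n = 3 per group; 95% interval -3.09 to -0.64; limma adjusted p = 0.034).

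miR-100, which differs from miR-99a by 1 base, had Ct values of 26.6, 23.5 and 23.0 in KO and 22.2, 22.1 and 21.0 in WT. Its level was -3.81, -3.27 and -3.64 in KO samples and -1.14, -1.59 and -1.88 in WT samples. All KO samples were at least 1.39 below every WT sample, the widest gap among the members. miR-100 fell 4.11-fold (-2.04 ± 0.50, SE; 95% interval -3.22 to -0.86; limma adjusted p = 0.0312).

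miR-99b, from the cluster on chromosome 17, was more uneven. Its Ct values were 30.6, 24.5 and 25.01 in KO and 24.4, 22.0 and 22.5 in WT, which gave levels of -7.77, -4.21 and -5.68 in KO and -3.30, -1.42 and -3.37 in WT. In both groups replicate 2 was highest, and KO replicate 1 was lowest of all. The groups stayed 0.84 apart, and miR-99b fell 9.13-fold (-3.19 ± 1.03, SE; 95% interval -5.64 to -0.74; limma adjusted p = 0.0487). Without KO replicate 1 the difference was -2.25 (adjusted p = 0.0977).

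These calls depended on single samples. Those of miR-99a and miR-100 held without KO replicate 1 (adjusted p = 0.0416 and 0.0335), and that of miR-100 also without KO replicate 3 (0.0462). miR-99a did not pass without KO replicate 3 (0.0581), and neither of the 2 passed without KO replicate 2 (0.0581 for both) or without WT replicate 1 (0.115 and 0.111), 2 (0.123 and 0.109) or 3 (0.0804 and 0.0733). miR-99b passed with all 6 samples and in none of the fits without 1 sample, where its adjusted p was between 0.056 and 0.151. Without KO replicate 2 or any 1 WT sample, 2 or 3 assays of the whole panel were lower. The direction was negative for all 3 with the 5 endogenous controls, with U6 alone, without U6, with the 3 controls behind the authors' ratios, and without a reference. With the mean of the miRNAs detected in all 6 samples as reference, which removes a shift common to the miRNAs and moves the median of all assays to -0.20, miR-99a turned to 0.020, while miR-100 was at -0.15 and miR-99b at -1.30.

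**Figure D2:**
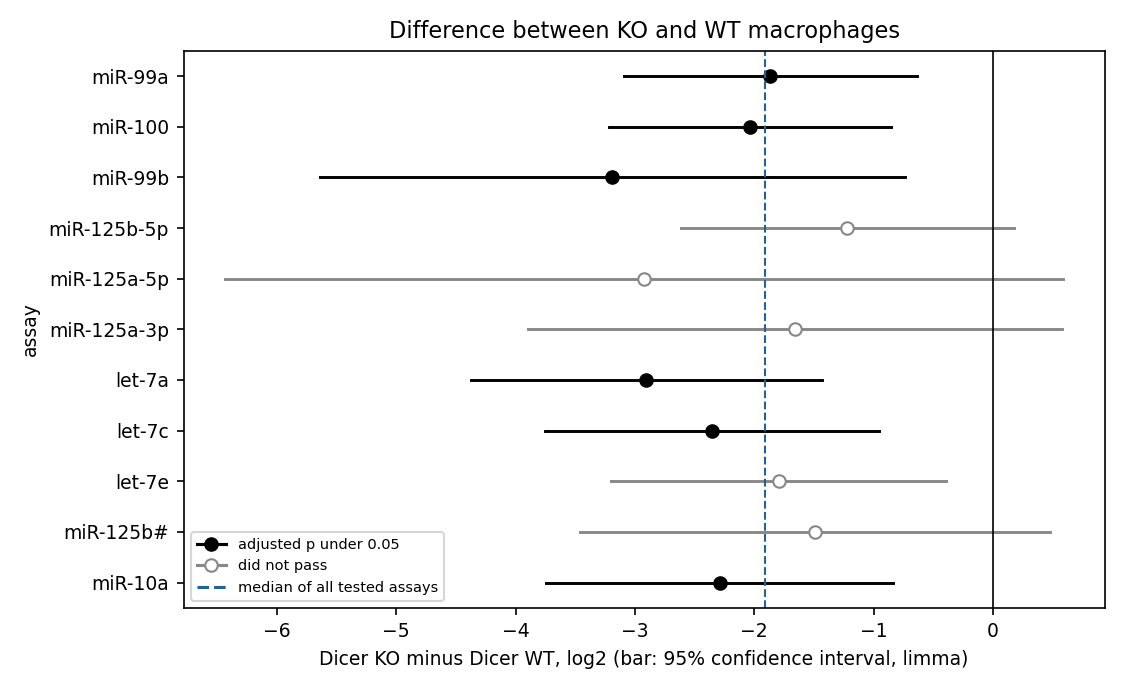
Difference between Dicer KO and Dicer WT in log2 relative abundance (x axis) with its 95% confidence interval for 6 members, 3 let-7 assays of the same clusters, the passenger strand assay miR-125b# and miR-10a (y axis); filled points passed the adjusted threshold, and the dashed line is the median of all tested assays, -1.91. The intervals of miR-125b-5p, miR-125a-5p, miR-125a-3p and miR-125b# include 0, and those of all assays drawn include the dashed line.

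In the miR-125 family, miR-125b-5p showed the smallest difference of the members. Its Ct values were 25.7, 23.1 and 22.6 in KO samples and 22.0, 22.4 and 21.6 in WT samples. The level was -2.82, -2.87 and -3.25 in KO and -0.91, -1.85 and -2.53 in WT. KO samples lay within 0.42 of one another and under every WT sample, but by only 0.30 at the nearest, since WT replicate 3 was low. The difference was -1.22 ± 0.59 (SE; 95% interval -2.61 to 0.17; limma adjusted p = 0.128), and -0.79 without WT replicate 1 (adjusted p = 0.348) against -1.60 without WT replicate 3 (0.119).

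miR-125a-5p, which shares the seed of miR-125b-5p, had the largest spread. Its Ct values were 32.1, 24.5 and 23.3 in KO and 25.2, 22.2 and 22.0 in WT. Relative to the controls it stood at -9.23, -4.25 and -3.99 in KO and at -4.13, -1.69 and -2.88 in WT. KO replicates 2 and 3 lay beside WT replicate 1, so that the groups overlapped, and KO replicate 1 lay far below them. The difference of -2.92 ± 1.48 (SE; 95% interval -6.43 to 0.59; adjusted p = 0.143, limma) became -1.22 without KO replicate 1 (adjusted p = 0.276) and -3.84 without KO replicate 3 (0.0746).

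The other arm of the same hairpin, miR-125a-3p, was detected later, at Ct values of 34.0, 28.6 and 28.3 in KO and 29.8, 27.1 and 27.3 in WT. Its level was -11.1, -8.38 and -8.94 in KO and -8.76, -6.52 and -8.21 in WT. As with miR-125a-5p, KO replicate 1 was lowest and WT replicate 2 highest, and the groups overlapped. The difference was -1.66 ± 0.94 (SE; 95% interval -3.89 to 0.58; limma adjusted p = 0.176), and -0.83 without KO replicate 1 (adjusted p = 0.443). The KO value of replicate 1 lay close to the ceiling.

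The 3′ arm of miR-125b was at the limit of detection in pool A. miR-125b-3p had Ct 40 in KO replicates 1 and 2 and 33.0 in KO replicate 3, and Ct 40 in WT replicates 1 and 3 and 32.2 in WT replicate 2. With 1 of 3 samples measured in each group it was not tested, and its groups show no order. A second assay of a miR-125b passenger strand, miR-125b# in pool B, amplified in all samples, with Ct values of 33.7, 30.0 and 28.1 in KO and 29.5, 29.0 and 27.6 in WT. It was at -1.49 ± 0.83 (SE; 95% interval -3.46 to 0.48; limma adjusted p = 0.169), with overlapping groups, at -2.28 without KO replicate 3 (adjusted p = 0.0462) and at -0.88 without KO replicate 1 (0.402). The 2 hairpins of miR-125b give different 3′ arms, shown here because the files do not say which of them each assay reads.
miR-125b-1-3p: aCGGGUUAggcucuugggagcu
miR-125b-2-3p: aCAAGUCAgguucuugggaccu

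Members of different clusters varied between replicates in different ways. The 3 members on chromosomes 9 and 16 (miR-99a, miR-100 and miR-125b-5p) spanned 0.42 to 0.83 log2 units within the KO group and 0.66 to 1.62 within the WT group. The 3 members on chromosome 17 (miR-99b, miR-125a-5p and miR-125a-3p) spanned 2.77 to 5.24 within KO and 1.95 to 2.43 within WT. The median span of all tested assays was 1.87 in KO and 1.06 in WT, between these ranges in KO. The wide span was not shared by let-7e, which is from the chromosome 17 cluster but not a member. It spanned 1.32 in KO and 0.93 in WT, under both medians. All chromosome 17 members were highest in WT replicate 2 and lowest in KO replicate 1, and the other 3 were highest in WT replicate 1 and lowest, among WT samples, in replicate 3. KO replicate 1 was also the sample with the latest controls, and the part of this in the spread was not tested. Per sample, the mean of miR-99b and miR-125a-5p minus the mean of miR-99a, miR-100 and miR-125b-5p was -5.36, -1.53 and -1.66 in KO and -2.97, -0.17 and -1.37 in WT. This contrast, chosen after the values were seen, differed by -1.35 between KO and WT with overlapping groups (exact permutation p = 0.4, two-sided). With 3 samples against 3 the smallest p of this test is 0.1.

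**Figure D3:**
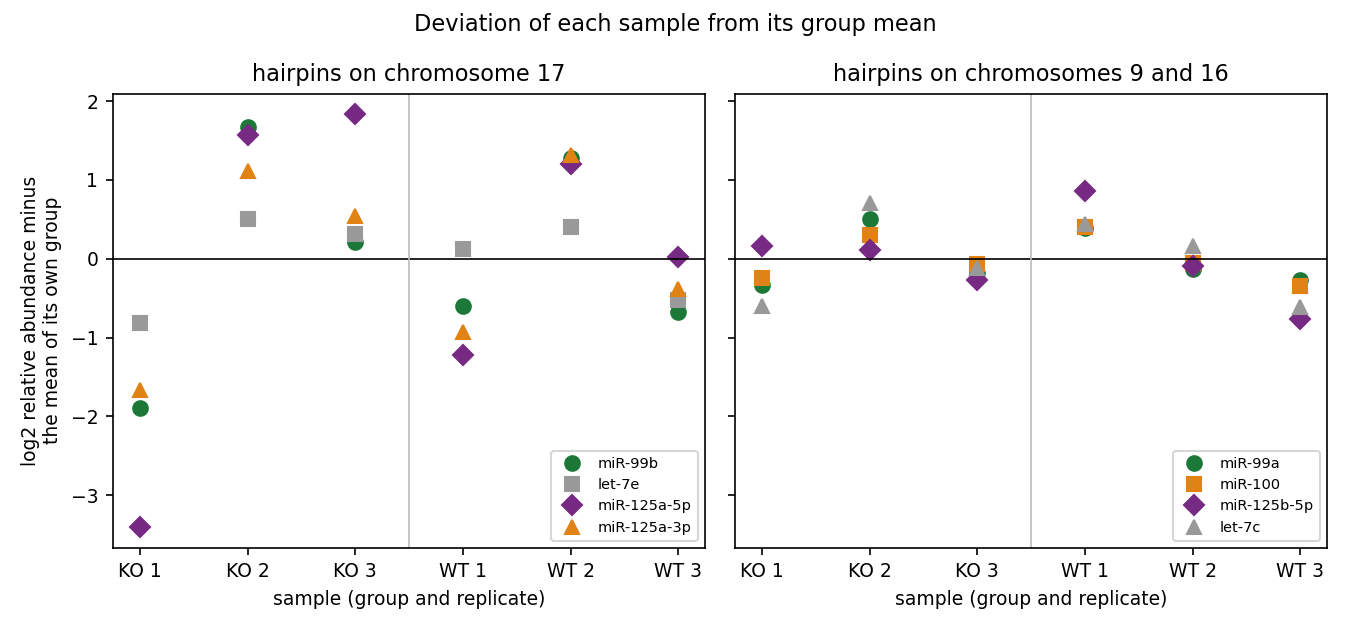
Deviation of each sample (x axis) from the mean of its own group in log2 relative abundance (y axis), for assays of hairpins on chromosome 17 (left) and on chromosomes 9 and 16 (right). On the left miR-125a-5p runs between -3.40 in KO replicate 1 and 1.84 in KO replicate 3, while on the right all points lie between -0.77 and 0.85.

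Pairs of assays in the same pool can be set against each other without the controls, which cancel in the difference, and 10 such pairs were compared. miR-99a and miR-100 moved together most closely: miR-99a minus miR-100 was 1.02, 1.31 and 1.01 in KO samples and 0.94, 0.86 and 1.02 in WT samples. This difference stayed within 0.45 log2 units over all 6 samples, although the 2 hairpins lie on different chromosomes. Between KO and WT it changed by 0.17 (exact permutation p = 0.2, two-sided; adjusted over the 10 pairs, p = 0.5). Cross-detection between these near-identical sequences was not tested.

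Of the 10 pairs, only miR-100 minus miR-125b-5p separated the groups, with -0.99, -0.39 and -0.39 in KO and -0.23, 0.26 and 0.65 in WT. miR-100 was thus lower against miR-125b-5p by 0.82 in KO, with the smallest p the design allows (exact permutation p = 0.1; adjusted p = 0.5). miR-99a minus miR-125b-5p, the corresponding pair of the chromosome 16 cluster, differed by -0.65 (p = 0.2, exact permutation; adjusted p = 0.5). The other family pairs were wider: miR-99b minus miR-100 differed by -1.15 and miR-125a-5p minus miR-125b-5p by -1.70, each with overlapping groups (exact permutation p = 0.5). Within the cluster on chromosome 17, miR-99b minus miR-125a-5p was 1.46, 0.05 and -1.69 in KO and 0.83, 0.27 and -0.49 in WT. Its mean difference of -0.27 was small beside this spread (exact permutation p = 0.8). The strands of miR-125a differed in KO replicate 1, where miR-125a-5p minus miR-125a-3p was 1.92, against 4.12 and 4.96 in the other KO samples and 4.64, 4.83 and 5.32 in WT samples. Between the groups this pair differed by -1.26 (exact permutation p = 0.3; adjusted p = 0.556). With same-numbered samples taken as pairs, a comparison added after the values were seen, 8 of the 10 differences had the same sign in all 3 pairs of samples. Several of the 10 share an assay, such as miR-99b or miR-125a-5p, so their signs are not independent. For miR-99b minus let-7e the KO sample differed from its WT sample by -1.74, -1.09 and -1.35, and for miR-100 minus miR-125b-5p by -0.76, -0.66 and -1.04. These 8 each had an exact paired permutation p of 0.25, the smallest that 3 pairs allow. Neither exact test could therefore pass a threshold of 0.05 for any of the 10 pairs.

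**Figure D4:**
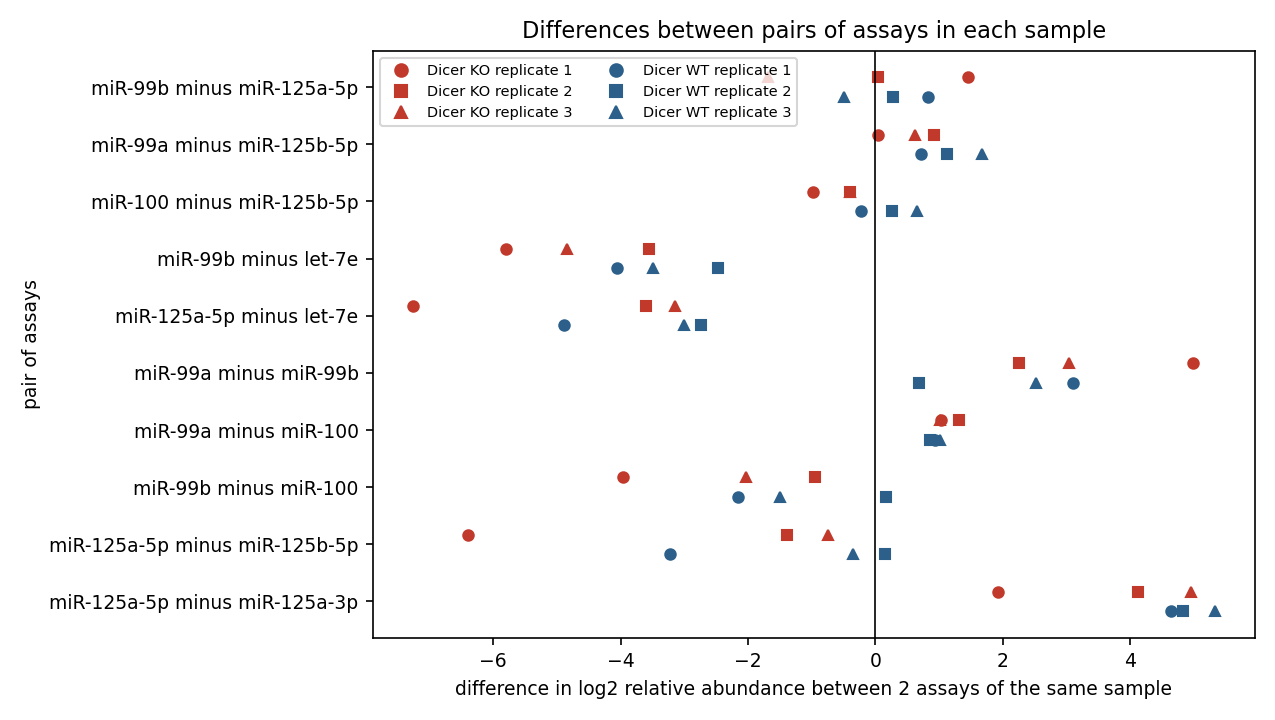
Difference in log2 relative abundance between 2 assays of the same sample (x axis) for 10 pairs (y axis), with Dicer KO samples in red above Dicer WT samples in blue and symbols for the replicate. miR-99a minus miR-100 stays between 0.86 and 1.31 in all samples, while miR-125a-5p minus miR-125b-5p runs between -6.40 and 0.16.

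The let-7 guides of the same clusters are the other products of these loci, although let-7a and let-7c are also made from hairpins elsewhere. let-7 guides restrain growth-promoting transcripts in many tissues. Of the 3 assays, let-7a and let-7c fell and let-7e did not pass (unadjusted p under 0.05 for all 3). let-7a was at -4.59, -3.50 and -4.66 in KO and -0.63, -1.37 and -2.04 in WT, a fall of 7.49-fold (limma adjusted p = 0.0312). let-7c was at -4.12, -2.81 and -3.63 in KO and -0.72, -0.997 and -1.78 in WT, a fall of 5.11-fold (adjusted p = 0.0321, limma). let-7e, which lies between miR-99b and miR-125a, was at -1.97, -0.65 and -0.84 in KO and 0.76, 1.05 and 0.12 in WT, with separate groups (-1.80 ± 0.59, SE; limma adjusted p = 0.0504). Like miR-99b, let-7e was highest in replicate 2 of both groups, which miR-125a-5p was only in WT, and let-7e spanned 1.32 in KO and 0.93 in WT. Against let-7e, miR-99b was lower in KO by 1.39 and miR-125a-5p by 1.13, in overlapping groups (exact permutation p = 0.2 and 0.5). Without KO replicate 2 or any 1 WT sample, 0 of the 3 let-7 assays passed with limma, with 2 or 3 at an unadjusted p under 0.05.

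The miR-10 guides resemble the miR-99/miR-100 family in sequence but have another seed, and are printed for comparison with the sequences above.
miR-10a: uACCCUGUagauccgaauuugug
miR-10b: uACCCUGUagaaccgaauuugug
miR-10a was at -6.13, -4.84 and -4.58 in KO and -2.41, -3.04 and -3.22 in WT, 4.89-fold lower (limma adjusted p = 0.034, 0.0511 with the replicate number as a block). miR-10b in pool A fell by 3.91 on the log2 scale, with KO replicate 1 at Ct 40 set to the ceiling (limma adjusted p = 0.0311), and by 2.57 with the floor set after scaling to the controls (adjusted p = 0.0157). Neither the miR-10a nor the miR-10b call held without KO replicate 2 (miR-10b at -3.50) or any 1 WT sample. A second miR-10b assay, in pool B, was at or near the limit of detection, with Ct values of 40, 40 and 35.4 in KO and 34.96, 35.4 and 33.9 in WT, and was not tested.

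Stromal cells, in which miR-99a, miR-100 and miR-125b are also abundant, keep Dicer in this model, so their markers were set beside the members. Of 6 stromal and fibroblast assays (miR-143, miR-145, miR-199a-3p, miR-199a-5p, miR-214 and miR-199b), 5 were tested and 0 passed with limma; no marker was undetected in all samples. Their summed relative abundance was 0.0488, 0.0501 and 0.0988 in KO and 0.616, 0.406 and 0.00510 in WT. WT replicate 3 thus lay below every KO sample in stromal markers, and WT replicates 1 and 2 lay above. miR-99a, miR-100 and miR-125b-5p followed the same order within WT, highest in replicate 1 and lowest in replicate 3. That order was not particular to them. let-7a, let-7c, miR-10a and the myeloid markers miR-21, miR-142-3p and miR-142-5p had it too, while let-7e, miR-223, miR-146a and miR-155 did not. In WT replicate 3 the 3 members were above every KO sample. miR-99a was at -0.86 against -1.96 in the highest KO sample, miR-100 at -1.88 against -3.27, and miR-125b-5p at -2.53 against -2.82. Without WT replicate 3 the differences were -1.999 for miR-99a, -2.21 for miR-100 and -1.60 for miR-125b-5p. Of the endothelial, lymphocyte and epithelial marker assays 1 of 8 passed, miR-181a, and their summed levels were higher in every WT than in every KO sample. For comparison, 37.2% of all tested assays were lower. The sums leave out wells at or above the ceiling, such as miR-126-3p and miR-200a in KO replicate 1. The erythroid marker miR-451 was not tested, and its level was 0 to 0.00015 in KO and 0 to 5.94e-05 in WT samples. The part of these markers, stromal ones included, in the results was not tested.

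**Figure D5:**
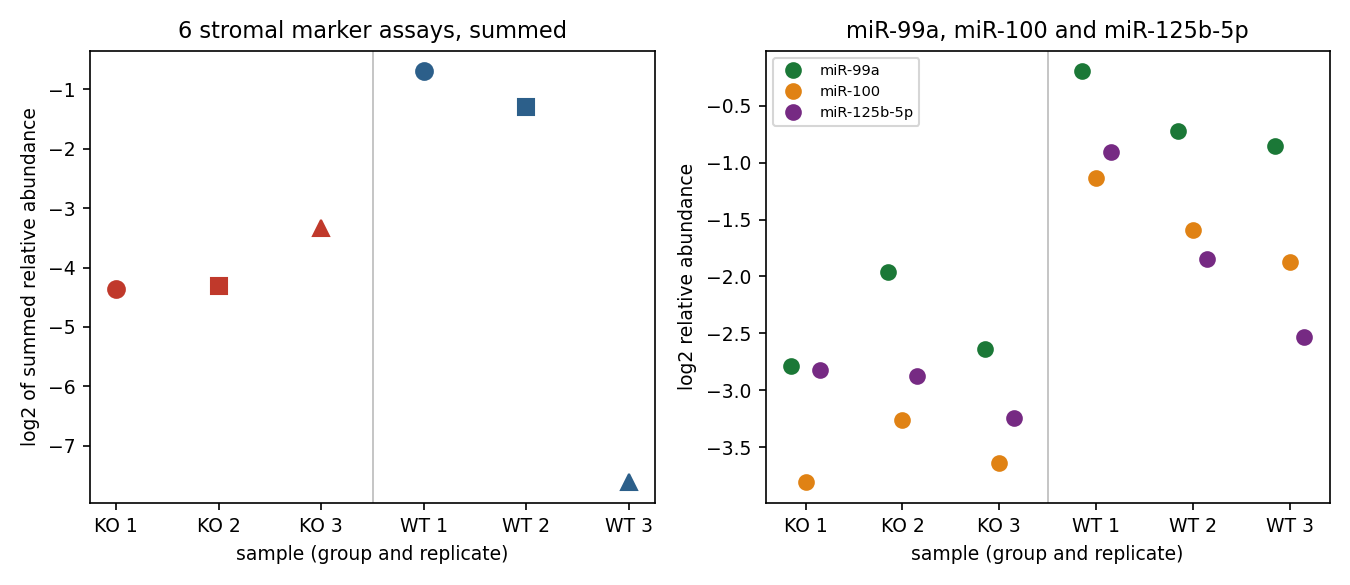
Left, log2 of the summed relative abundance of 6 stromal marker assays (y axis) in each sample (x axis; 3 Dicer KO samples left of 3 Dicer WT samples). Right, log2 relative abundance of miR-99a, miR-100 and miR-125b-5p in the same samples; WT replicate 3 is lowest of all on the left and above every KO sample of the same miRNA on the right.

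Among 195 other assays detected in all 6 samples, those with profiles most like the mean of the 6 tested members were miR-322 in pool A (Pearson r = 0.995 over 6 samples), let-7b (0.99), miR-467a in pool A (0.987), let-7e (0.985) and miR-29a (0.984). The samples share their controls and the difference between KO and WT, and 70 of the 195 assays had r over 0.9, so these values describe a pattern that many assays had. miR-322 was at -1.91 ± 0.64 (SE; limma adjusted p = 0.0524), and let-7b, miR-467a and miR-29a were lower by 4.96-fold, 5.44-fold and 4.14-fold (limma adjusted p = 0.0402, 0.034 and 0.0471).

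The authors' deposited table of fold changes lists KO over WT ratios of 0.289 for miR-99a, 0.143 for miR-99b, 0.407 for miR-125b-5p, 0.241 for miR-125a-5p and 0.346 for miR-125a-3p. For miR-125b-3p the authors' deposited table lists 0.281, with 4 of its 6 wells at Ct 40. For miR-100 the same deposited table gives 2.39, in the opposite direction to its own Ct row. The 6 deposited ratios of miR-100 equal, to within 1e-06 on the log2 scale, those that follow from the Ct row of miR-1, which is at Ct 40 in all samples, and of 110 miRNA rows in all with the same ratios. In the authors' deposited table miR-125b# stands at 1.16, with the ratios that follow from the Ct row of miR-1274a. In all, 33 of 596 deposited rows of ratios departed by over 0.01 from their own Ct row. The Ct rows were used throughout.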

How the data were processed

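MicroRNAs were measured in 3 Dicer KO and 3 Dicer WT samples. Per the labels' protocols, mirVana total RNA was reverse transcribed and preamplified with TaqMan kits. Instrument and software: not given in the sources used here. Deposited by the authors were Ct scores for 596 miRNA assays and their controls and, as ratios, relative quantities and fold changes. The members, lists and rules were chosen with earlier results of these data known. Named are the members, let-7a, let-7c and let-7e, passenger strands, miR-10a and miR-10b, the 5 assays most like the members, controls and cell markers.

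Ct values at or above 35 were set to 35. Assays below 35 in all samples of at least 1 group (282 of 596) were tested with limma 3.58.1 in R 4.3.3 (lmFit, eBayes, two-sided, Benjamini-Hochberg, threshold 0.05), and the script was tested on simulated data. Pairs of assays were compared by exact permutation tests (scipy 1.17.1, Python 3.11.15). Same-numbered samples deviated together across assays, with correlations of 0.228, 0.283 and 0.267, against -0.279 to 0.0102 for unlike numbers, and were taken as pairs on this basis alone. Deviations from a group mean cancel within the group, so positive values for like numbers push those for unlike numbers down. The unlike numbers are thus not an independent comparison, and the pairing remains an assumption. The number of samples limits the precision.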

Additional observations from a re-analysis of the deposited data

How the results depend on the processing

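With the global mean of miRNAs as reference, the median difference of the members was -0.065, and miR-99a, miR-125b-5p, miR-125a-3p and let-7e turned to 0.020, 0.67, 0.23 and 0.090. By limma, the number of members that were lower, 3 in the report, was 0 with that reference (0 at an unadjusted p under 0.05), 0 with no reference (1 unadjusted), 0 with assays admitted from at least 1 sample (3 unadjusted; 352 assays tested) and 1 with the deposited relative quantities, from which miR-100 and the other mismatched rows were left out. Under the first 3 of these settings the counts of let-7 partners and of miR-10 assays were also 0. At an unadjusted p under 0.05 they were 0 and 0 with the global mean and 1 and 1 with no reference. With assays admitted from at least 1 sample they were 3 and 2. The miR-10 count was 1 with the filter on all 6 samples, which removes miR-10b, and 1 with the replicate block, which changed no other call among the members, the let-7 partners, miR-125b# and the pairs of assays. Without 1 replicate, the counts ran between 0 and 2 for members, let-7 partners and miR-10 assays and between 0 and 1 for miR-125b#. Without 1 replicate, miR-99b minus miR-125a-5p lay between -1.03 and 0.55, miR-125a-5p minus let-7e between -1.89 and 0.17, and miR-125a-5p minus miR-125b-5p between -2.75 and 0.078. Over all assays, 105 were lower in the main fit, 2 with no reference, 2 with the global mean and 2 with the wider filter. miR-99b did not pass with a ceiling of 38, without a ceiling, with the floor set after scaling or without U6 (adjusted p between 0.0541 and 0.0675), and let-7e passed under 5 settings. Except where named, the cause was not tested. Assays near Ct 35 carry the least information.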

Other observations

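Assays of 2 let-7 passenger strands, chosen after their values were seen, were read in pool B. Which let-7a hairpin the assay let-7a# reads was not resolved, so it is not placed in any of the clusters. let-7c-1#, named for the let-7c hairpin beside miR-99a, was at -12.9, -9.00 and -8.79 in KO, where replicate 1 was at the ceiling, and at -7.56, -7.36 and -6.41 in WT. The groups did not overlap, and the difference was -3.11 or lower on the log2 scale (limma adjusted p = 0.0632), or -1.79 without KO replicate 1 (adjusted p = 0.0455). let-7a# was at -10.8, -9.52 and -8.75 in KO and -7.08, -7.69 and -7.14 in WT, 5.26-fold lower (limma adjusted p = 0.034, between 0.0699 and 0.113 without KO replicate 2 or any 1 WT sample).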
